A study of Mus musculus with 3 samples.

Results

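Cyp1b1, Cyp1a1, Ahr, Ahrr, Arnt and Tiparp are genes of the aryl hydrocarbon receptor (AHR) pathway, and each had 1 gene model in the deposited files, so they make up 6 of 22658 models. They were taken by symbol, and the set was chosen by earlier measured values of these same libraries, in which Cyp1b1 was low in both doxycycline libraries. All values below are therefore descriptions, and no test was made on them. The cells were NB490, a mouse pancreatic cancer line selected with puromycin for a hairpin construct that knocks down PDX1 when doxycycline is added. Nascent RNA was labelled with 2 mM bromouridine for 30 min and captured with an antibody (Bru-seq), so that reads report recent transcription over introns and exons. There were 3 libraries: uninduced cells (0 h of doxycycline), cells after 48 h of doxycycline, and cells grown out in the drug over a period longer than 3 weeks. With 1 library in each condition, no difference has a replicate check. All 3 libraries came from cells with the hairpin vector, and doxycycline without the hairpin was not analysed here, so the drug and the hairpin cannot be told apart. Whether the line was 1 clone is not given in the sources used here.

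AHR is a ligand-activated transcription factor of the basic helix-loop-helix PAS family. Without ligand it rests in the cytoplasm with HSP90 and co-chaperones. With ligand, such as a dioxin, a polycyclic hydrocarbon or a tryptophan derivative, it moves to the nucleus, pairs with ARNT and binds response elements with the core GCGTG. Its classic target genes include Cyp1a1 and Cyp1b1, monooxygenases that oxidise hydrocarbons and, for Cyp1b1, also steroids and retinoids. Ahrr, a repressor that competes for ARNT, and Tiparp, a mono-ADP-ribosyltransferase that limits AHR activity, are targets that act back on the receptor.

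The start-site windows of the AHR target genes among the 6 are shown because these 4 genes share a known activator and yet differed in level. Cyp1b1 and Tiparp also differed in direction, whereas Cyp1a1 and Ahrr had no detectable difference. Sequences are from RefSeq (GRCm38.p6), from 250 bases before to 50 bases after the annotated start, 5′ to 3′ on the gene's own strand. Capitals mark GCGTG or its reverse complement.
Cyp1b1 (chr17:79715012-79715311, minus strand): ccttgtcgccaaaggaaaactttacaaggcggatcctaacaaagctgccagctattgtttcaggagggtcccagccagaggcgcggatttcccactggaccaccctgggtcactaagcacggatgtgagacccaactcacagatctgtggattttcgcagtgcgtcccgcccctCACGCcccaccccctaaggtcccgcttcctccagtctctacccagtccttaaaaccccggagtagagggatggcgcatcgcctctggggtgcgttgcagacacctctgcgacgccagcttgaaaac
Tiparp (chr3:65528197-65528496, plus strand): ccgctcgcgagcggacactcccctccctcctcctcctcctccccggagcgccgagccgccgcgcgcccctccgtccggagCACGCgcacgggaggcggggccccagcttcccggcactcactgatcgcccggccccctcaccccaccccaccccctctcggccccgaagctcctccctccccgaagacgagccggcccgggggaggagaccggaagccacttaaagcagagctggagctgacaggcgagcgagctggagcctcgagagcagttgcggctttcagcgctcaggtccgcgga
Cyp1a1 (chr9:57697363-57697662, plus strand): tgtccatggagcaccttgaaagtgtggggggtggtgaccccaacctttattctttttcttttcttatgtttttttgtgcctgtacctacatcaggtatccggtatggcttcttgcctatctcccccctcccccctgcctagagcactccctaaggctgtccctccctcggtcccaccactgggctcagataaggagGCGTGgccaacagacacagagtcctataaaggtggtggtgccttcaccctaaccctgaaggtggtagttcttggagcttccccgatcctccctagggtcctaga
Ahrr (chr13:74292282-74292581, minus strand): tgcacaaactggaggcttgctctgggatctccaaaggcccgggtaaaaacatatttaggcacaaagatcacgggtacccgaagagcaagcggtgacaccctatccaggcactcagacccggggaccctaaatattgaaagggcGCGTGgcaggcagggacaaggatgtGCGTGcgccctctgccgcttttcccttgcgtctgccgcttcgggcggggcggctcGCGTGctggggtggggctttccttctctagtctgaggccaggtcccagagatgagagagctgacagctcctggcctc

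The RefSeq table held windows for 5 of the 6 genes. The motif GCGTG, searched on both strands, was found 1 time each in the windows of Cyp1b1, Tiparp, Cyp1a1 and Arnt, and 3 times in that of Ahrr. Of all 32851 windows of the same length, 32.4% held it, and 3.91% held it at least 3 times. Of the 7205 windows of measured symbols, to which those of Cyp1b1, Tiparp and Arnt belong, 53.7% held it. The longer form TNGCGTG, which contains the shorter motif, was found only in the Ahrr window among the 5, and it occurred in 5.07% of all windows and in 8.62% of those of measured symbols. The Cyp1b1 match lay on the antisense strand with its first base 76 bases before the start, the Cyp1a1 match on the sense strand at 54 bases before it, and the Tiparp match on the antisense strand at 170 bases before it. The Cyp1a1 window belongs to a start 9685 bp inside the RefSeq gene, whose length of 15897 bp is also that of the deposited model. The Cyp1a1 value below is thus spread over a model that begins well upstream of that window. These matches describe letters in a window and are not measured binding sites. Sequence farther than 250 bases before the start was not searched.

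The read total behind the RPKM values ranged from 41632296 to 51006774 per library. RPKM scales reads by gene model length and by that total. A gene was treated as measured where its mean over the 3 libraries was at least 0.5 RPKM, which held for 7915 models. Of 11 duct and epithelial markers 7 were measured, among them Krt7, Krt8, Krt18, Krt19 and Cdh1. Epcam and Sox9 were below the minimum, and Cldn7 had no read in any library. The 10 fibroblast markers were each under 0.05 RPKM in every library, with Lum, Pdgfrb, Acta2, Pdpn and Thy1 at 0 reads. Their summed reads ran from 78 to 146 per library, highest in the uninduced one. The endothelial and immune lists summed to 169 to 357 and 99 to 212 reads, and both were also highest in uninduced cells. Of 9 immune markers 7 were under 0.05 RPKM in every library, but Cd68 (0.995, 0.916 and 0.901 RPKM) and Cd14 (1.42, 0.451 and 0.469 RPKM) were measured, at levels near that of Cyp1b1. The part of these sums in the results was not tested. In bulk libraries such as these, fewer transcribing cells and less transcription per cell cannot be told apart.

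Transcription of the 6 genes spread over more than 3 orders of magnitude, and the order was Tiparp, Arnt, Ahr, Cyp1b1, Cyp1a1 and Ahrr in each library. In the uninduced library, Tiparp had 7.11 RPKM, with a 95% Poisson interval of 6.97 to 7.25. Arnt had 2.91 (2.85 to 2.97), Ahr 2.34 (2.27 to 2.41) and Cyp1b1 1.90 (1.77 to 2.04). Cyp1a1 had 0.0618 (0.0458 to 0.0813) and Ahrr 0.000724 (0.000149 to 0.00212). No 2 neighbours in this order had overlapping intervals. The receptor and its partner, and Cyp1b1, thus lay among ordinarily transcribed genes of this line, Tiparp at percentile 93.0 of the measured genes, and Cyp1a1 and Ahrr below every measured gene. All 6 are accounted for here, but only 4 passed the minimum. Cyp1b1 passed on its mean of 1.03 RPKM, with a grown-out level that was itself below 0.5 RPKM. Intervals in this text cover counting error only, not variation between cultures, and repeat reads of 1 molecule could make them too narrow.

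**Figure D1:**
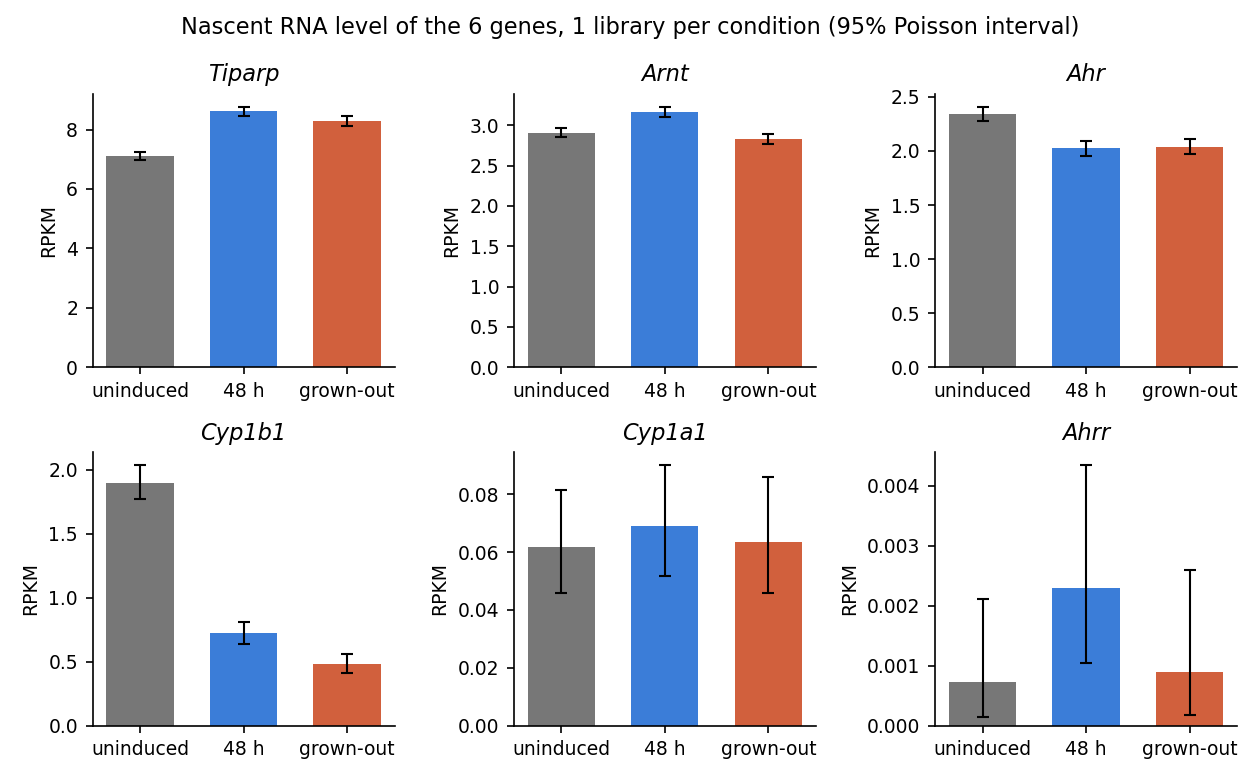
Nascent RNA level in RPKM (vertical axis from 0, a separate scale per gene) of the 6 genes by library (uninduced, 48 h, grown-out); bars are the values of 1 library each and lines are 95% Poisson intervals. Cyp1b1 goes from 1.90 to 0.723 and 0.481 RPKM, whereas Tiparp, Arnt and Ahr stay within 1.21-fold of their uninduced level.

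Among the 4 measured genes of the set, Cyp1b1 alone had a large difference. Some weakly transcribed AHR targets outside the set, given below, had larger folds in a single comparison. Its model (chromosome 17, 80106293 to 80114381, minus strand) is placed in the files' own coordinates. Their mouse build is not given in the sources used here, where the only build named is the human hg19. The model had 784 reads in the uninduced library, 283 at 48 h and 162 in grown-out cells. These are 1.90, 0.723 (0.641 to 0.812) and 0.481 RPKM (0.410 to 0.561). The uninduced library was the highest and the grown-out library the lowest, with no overlap among the 3 intervals. Against uninduced cells, the level was 2.63-fold lower after 48 h (exact conditional binomial 95% interval 2.29 to 3.02), and after growing out it was 3.95-fold lower (3.33 to 4.71). On the log2 scale with a pseudocount of 0.05 RPKM, the differences were -1.33 and -1.88. Among the 7915 measured genes these were the 20th and the 9th lowest ratios. Its level moved from percentile 56.6 of the measured genes in uninduced cells to percentile 15.0 after 48 h and 2.25 after growing out. Models with a mean under 0.5 RPKM are left out of this ranking, so a level under 0.5 RPKM ranks low by construction. The percentiles are not ranks among all 22658 models. With a pseudocount of 0.5 RPKM the 48 h difference came to -0.97 and no longer reached 2-fold.

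Ahr, which encodes the receptor (chromosome 12, 36182651 to 36219661, minus strand), had 2.34 RPKM in uninduced cells, 2.02 at 48 h and 2.04 in grown-out cells. Both doxycycline libraries were lower than the uninduced library and close to each other. The differences were small, at 1.16-fold lower (1.11 to 1.21) and 1.15-fold lower (1.10 to 1.20). Its obligate partner Arnt (chromosome 3, 95238312 to 95301161, plus strand) had 2.91, 3.17 and 2.83 RPKM in the same order. The 48 h library was the highest, at 1.09-fold above uninduced (1.06 to 1.12). In grown-out cells Arnt was 1.03-fold lower, with an interval of 0.998 to 1.06 that included no change.

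Of the feedback genes, Tiparp was slightly higher in both doxycycline libraries and Ahrr was too weakly transcribed to compare. Tiparp (chromosome 3, 65332369 to 65359440, plus strand) had 7.11, 8.61 and 8.29 RPKM in uninduced, 48 h and grown-out cells. Both doxycycline libraries lay above the uninduced one, by 1.21-fold (1.18 to 1.24) and 1.17-fold (1.13 to 1.20). Another model, 4931440P22Rik, overlaps Tiparp on the opposite strand and had 11, 3 and 1 reads in the same order, against 9338 to 11291 reads for Tiparp. Whether the counting used strand is not given in the sources used here, so reads of the overlap cannot be told apart. Ahrr (chromosome 13, 74348566 to 74429757, minus strand) had 3 reads in uninduced cells, 9 after 48 h and 3 after growing out. The ratio of 48 h to uninduced reads, 3.16, had an interval from 0.789 to 18.1, so no difference was detectable at this depth. That ratio also has the 3 uninduced reads, the floor used here, as its denominator. No fold is given for grown-out against uninduced cells, where both libraries were at that floor.

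Cyp1a1, the other cytochrome gene of the family in the set (chromosome 9, 57535735 to 57551631, plus strand), had 50.1, 53.0 and 42.0 reads, or 0.0618, 0.0689 and 0.0635 RPKM. The 3 levels overlapped in their intervals. Set against uninduced cells, the 48 h ratio was 1.11 (0.744 to 1.68) and the grown-out ratio 1.03 (0.666 to 1.58). Both intervals lie above the Cyp1b1 ratios of 0.381 (0.331 to 0.436) and 0.253 (0.212 to 0.300), although Cyp1a1 rests on about 50 reads per library. The Cyp1a1 levels also lie just above 0.05 RPKM, and the part of background reads in them was not tested. Cyp1a2, the neighbour of Cyp1a1 and a further family member, had no read in any of the 3 libraries.

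**Figure D2:**
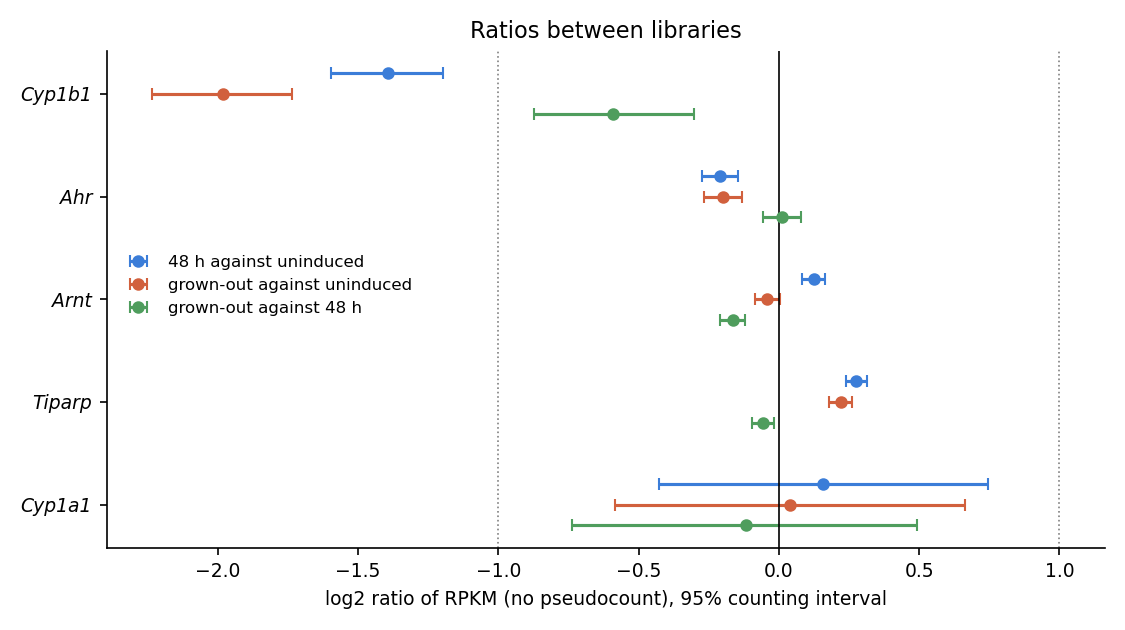
Log2 ratio of RPKM without pseudocount (horizontal axis) for 5 genes in 3 comparisons, with 95% exact binomial counting intervals; dotted lines mark 2-fold. Cyp1b1 alone lies beyond 2-fold in both comparisons with uninduced cells, Cyp1a1 has wide intervals around 0, and Ahrr is left out because it had 3 to 9 reads.

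Counted by rule, 1 of the 4 measured genes was past 2-fold lower at 48 h and 0 were past 2-fold higher. Past 2-fold means a log2 ratio of at least that size and an interval that excludes no change. The shares over all 7915 were 0.72% for lower and 0.0253% for higher in this comparison. In grown-out cells the count was again 1 lower and 0 higher, beside 0.708% and 0.164% of all measured genes. These comparisons share the uninduced library and were used to choose the set, so nothing is read from the counts. By the looser rule of an interval that excludes no change, 2 genes were lower at 48 h (Cyp1b1 and Ahr) and 2 higher (Arnt and Tiparp), beside 30.0% and 30.1% of all measured genes. In grown-out cells 2 were lower and 1 higher by that rule, beside 29.5% and 33.6%. By that rule, which does not measure size, small differences of Ahr, Arnt and Tiparp were thus of a kind that many genes showed. By size, the Tiparp ratio ranked 7450th from the lowest of the 7915 at 48 h and 6696th in grown-out cells. The median log2 ratio of the 4 genes was -0.04 at 48 h and -0.12 in grown-out cells, and that of all measured genes 0.0029 and 0.0082.

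Grown-out cells were also set against 48 h cells, a comparison that reuses both libraries. Cyp1b1 was 1.51-fold lower in grown-out cells (1.23 to 1.83), a log2 ratio of -0.54. Arnt was 1.12-fold lower (1.09 to 1.16), Tiparp 1.04-fold lower (1.01 to 1.07), and Ahr had a ratio of 1.01 (0.960 to 1.06). None of the 4 was past 2-fold, beside 0.316% lower and 0.708% higher among all measured genes. By counting error alone 3 were lower and 0 higher, beside 32.0% and 35.6%.

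Other AHR target genes were mostly weakly transcribed in this line. Of 11 listed, only Nfe2l2, which encodes the antioxidant regulator NRF2, was measured. It had 10.5, 7.93 and 7.93 RPKM in uninduced, 48 h and grown-out cells. Against uninduced cells it was 1.32-fold lower after 48 h (1.29 to 1.36) and 1.33-fold lower after growing out (1.29 to 1.36). A further 6 genes had a mean from 0.05 to below 0.5 RPKM, and 4 were under 0.05 RPKM. The values of the 6 are given as chosen after they were seen, since they lie outside the naming rule. At 48 h 5 of these 6 were lower beyond counting error and 0 higher, beside 22.8% lower and 14.5% higher among the 3722 models in that range. In grown-out cells 1 was lower and 1 higher, beside 31.3% and 13.2%. From 48 h to grown-out cells 1 was lower and 4 higher, beside 28.1% and 17.8%.

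Among these weak targets, Aldh3a1, Nqo1 and Cyp2s1 were low at 48 h, with grown-out intervals that included no change. Aldh3a1, an aldehyde dehydrogenase gene, had 93.0, 27.0 and 80.0 reads, or 0.188, 0.0576 and 0.199 RPKM. It was 3.27-fold lower at 48 h (2.11 to 5.22), whereas the grown-out ratio was 1.05 (0.772 to 1.44). Nqo1, a quinone reductase gene, had 0.196, 0.114 and 0.188 RPKM and was 1.72-fold lower at 48 h (1.30 to 2.27). Cyp2s1, another cytochrome gene, had 0.172, 0.0994 and 0.195 RPKM and was 1.73-fold lower at 48 h (1.27 to 2.34). Ugt1a6b, a glucuronosyltransferase gene, had 0.216, 0.0831 and 0.440 RPKM, so it was lowest at 48 h, and its grown-out level was 2.04-fold above uninduced (1.90 to 2.20). Its model shares the locus with other Ugt1a genes, so its value is uncertain. Ugt1a6a, the remaining gene of the 6, had 4, 3 and 6 reads, and no difference was detectable at that depth. Socs2, a cytokine signalling inhibitor gene, had 0.274, 0.162 and 0.0492 RPKM, and was lowest in grown-out cells, as Cyp1b1 was. With 75, 42 and 11 reads, Socs2 was 1.7-fold lower at 48 h (1.15 to 2.54). In grown-out cells it was 5.6-fold lower (2.94 to 11.6). Many of these genes also have other known activators, NRF2 in particular.

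**Figure D3:**
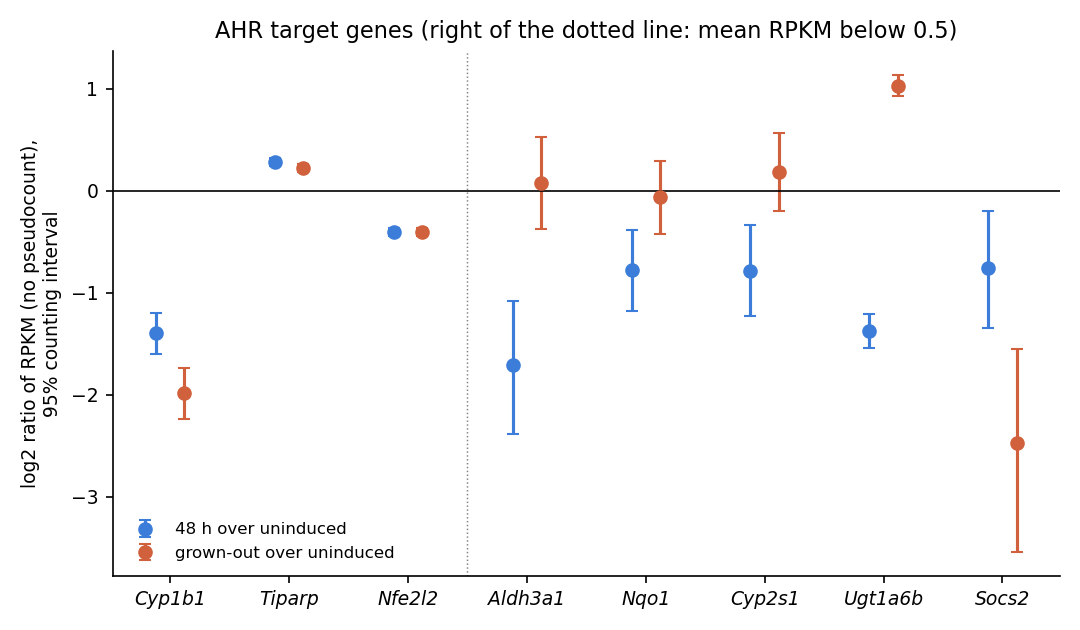
Log2 ratio to the uninduced library (vertical axis, RPKM without pseudocount) at 48 h and in grown-out cells for 8 AHR target genes, with 95% counting intervals. Cyp1b1 and Socs2 are lower in both libraries, Tiparp is slightly higher in both, and Aldh3a1, Nqo1 and Cyp2s1 are lower at 48 h with grown-out intervals that include no change.

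The chaperone complex that holds AHR in the cytoplasm was well transcribed, and 4 of 4 genes were measured. In both comparisons with uninduced cells 3 were higher beyond counting error and 0 lower, beside 30.1% higher at 48 h and 33.6% in grown-out cells among all measured genes. Hsp90aa1, an inducible HSP90 gene, had 16.9 RPKM in uninduced cells, 21.0 at 48 h and 25.1 in grown-out cells, the last being 1.48-fold higher (1.43 to 1.54). Hsp90ab1 had 22.8, 24.1 and 32.1 RPKM, and Ptges3, which encodes the co-chaperone p23, had 7.11, 7.64 and 8.02 RPKM. Their median log2 ratio was 0.09 at 48 h and 0.33 in grown-out cells. All 7 coactivator genes were measured, with 6 higher and 0 lower at 48 h, and 4 higher and 1 lower in grown-out cells. The shares of all measured genes were 30.1% higher and 30.0% lower at 48 h, and 33.6% and 29.5% in grown-out cells. Ncoa3 was 1.19-fold higher in grown-out cells, and the acetyltransferase genes Crebbp and Ep300 were each 1.15-fold higher. No chaperone or coactivator gene reached the 2-fold rule in either comparison. Of 13 other PAS family genes 2 were measured. Hif1a, the hypoxia factor that also pairs with ARNT, had 6.37, 4.98 and 5.51 RPKM, and Clock, a circadian factor, 2.64, 2.62 and 2.97 RPKM.

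Genes that make AHR ligands or work beside the cytochromes were measured in part. Of 10 genes of tryptophan breakdown and ligand formation only Afmid, a formamidase gene, was measured, at 0.588, 0.473 and 0.489 RPKM. Of the genes for the first step, Ido1 and Tdo2 were under 0.05 RPKM. Ido2, named after its values were seen, had 0.113, 0.0981 and 0.143 RPKM and was 1.26-fold higher in grown-out cells (1.06 to 1.5). Of 9 models for redox partners and conjugating enzymes 6 were measured, with 3 lower and 1 higher at 48 h, and 1 lower and 1 higher in grown-out cells. Among all measured genes 30.0% were lower and 30.1% higher at 48 h, and 29.5% and 33.6% in grown-out cells. Gstp1, a glutathione transferase gene, had 1.33, 0.958 and 1.12 RPKM, and Cyb5, which encodes cytochrome b5, had 1.73, 1.38 and 1.51 RPKM. Por, the reductase gene that supplies electrons to CYP1B1, had 1.20, 1.32 and 1.29 RPKM. The reductase was thus slightly higher in both doxycycline libraries, where Cyp1b1 was lower.

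Across the 95 other cytochrome P450 models, 5 were measured, 10 lay from 0.05 to below 0.5 RPKM and 80 under 0.05 RPKM. None of the 5 was past 2-fold against uninduced cells. The nearest was Cyp51, a sterol demethylase gene of cholesterol synthesis, with 4.72, 2.67 and 2.99 RPKM, or 1.77-fold (1.69 to 1.85) and 1.58-fold (1.51 to 1.65) lower. Cyp4f17 had 0.510, 0.819 and 0.379 RPKM and Cyp4f13 0.606, 0.628 and 0.387 RPKM, and both are uncertain as members of a family of similar genes. Of 14 PARP family genes, the relatives of Tiparp, 7 were measured and none was past 2-fold. At 48 h 4 were higher and 1 lower beyond counting error, and in grown-out cells 1 was higher and 3 lower. Beside these stand 30.1% higher and 30.0% lower at 48 h, and 33.6% and 29.5% after growing out, over all measured genes. Parp1 had 0.794, 0.880 and 0.928 RPKM, Parp2 1.37, 1.15 and 1.27 RPKM, and Parp4 0.532, 0.616 and 0.414 RPKM.

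Genes around Cyp1b1 on chromosome 17 did not show its difference at 48 h. No other model overlaps Cyp1b1, and 8 models lie within 500 kb, of which 3 were measured. Atl2, a gene for shaping the endoplasmic reticulum and the nearest measured one upstream, had 4.55, 4.62 and 5.43 RPKM. Hnrpll, a splicing regulator gene, had 5.30, 5.45 and 6.04 RPKM, and Srsf7, a splicing factor gene, 17.6, 14.9 and 16.5 RPKM. After 48 h the log2 ratios of these 3 ranged from -0.24 to 0.04, and after growing out from -0.09 to 0.25, beside -1.33 and -1.88 for Cyp1b1. Of the 3 weaker neighbours, named after their values were seen, Fam82a1 and Galm had log2 ratios from -0.30 to 0.28 in these comparisons. Cdc42ep3, on the other side at 360 kb between start sites, had 0.199, 0.172 and 0.0741 RPKM, and was 2.69-fold lower in grown-out cells (2.03 to 3.60).

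Around the other 5 genes, no measured neighbour was past 2-fold against uninduced cells. Near Cyp1a1 13 of 27 models were measured, and those with the largest ratios were Arid3b, Ulk3 and Scamp5. Arid3b, a DNA-binding protein gene, had 0.783, 0.656 and 0.563 RPKM, and Ulk3, a kinase gene, 0.645, 0.464 and 0.471 RPKM. Near Ahrr 10 of 17 were measured, led by Trip13, Exoc3 and Zfp825. Exoc3, an exocyst subunit gene, had 1.08, 1.15 and 1.42 RPKM, although Ahrr itself was nearly silent. Near Arnt 24 of 43 were measured, led by Rfx5, Fam63a and Gm4349. Rfx5, a regulator of antigen presentation genes, had 0.619, 0.551 and 0.418 RPKM. The only measured neighbour of Ahr was Snx13, with 2.47, 2.37 and 2.10 RPKM. Near Tiparp, Ssr3 had 12.1, 14.2 and 11.0 RPKM and Ccnl1 41.7, 36.7 and 41.1 RPKM.

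**Figure D4:**
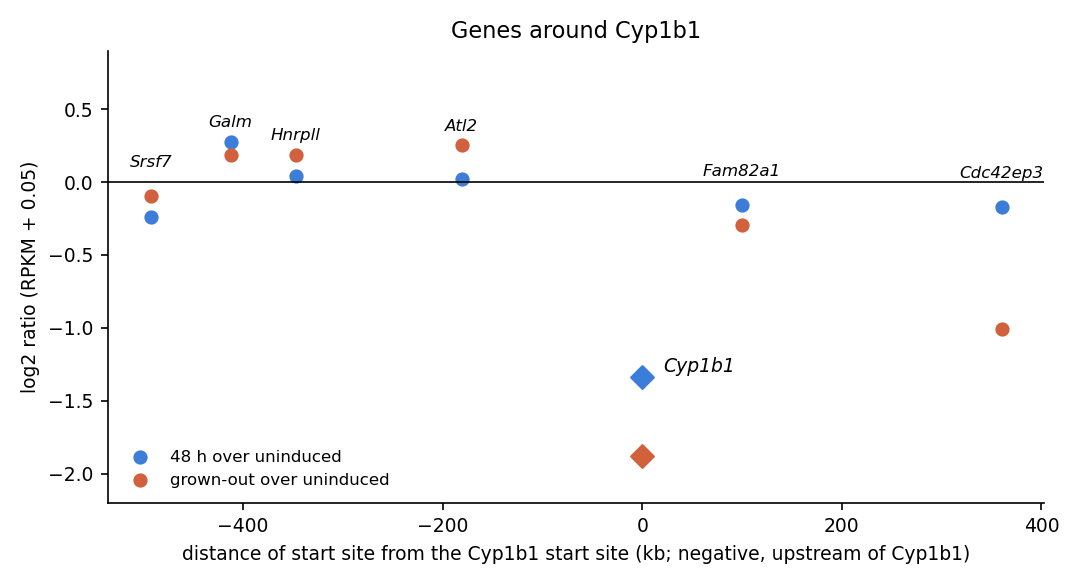
Log2 ratio to the uninduced library (vertical axis, RPKM plus 0.05) of Cyp1b1 (diamonds) and the 6 models within 500 kb with a mean of at least 0.05 RPKM (circles), against the distance between start sites in kb (horizontal axis). Cyp1b1 stands at -1.33 and -1.88; the neighbours lie between -0.30 and 0.28, except Cdc42ep3 in grown-out cells at -1.01.

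The genes nearest to Cyp1b1 in pattern were found by the distance between their log2 ratios at 48 h and in grown-out cells, over the 3 libraries. The 5 nearest were Spp1, which encodes osteopontin, at a distance of 0.27, Ly6e, a membrane-anchored protein gene, at 0.28, Btg2, an antiproliferative gene, at 0.32, Pdlim1, an actin-associated gene, at 0.40, and Cd14, a lipopolysaccharide co-receptor gene, at 0.43. Spp1 had 98.6, 40.0 and 32.3 RPKM, and Ly6e 1.55, 0.659 and 0.322 RPKM. Btg2 had 1.48, 0.696 and 0.336 RPKM. Pdlim1 had 1.11, 0.376 and 0.363 RPKM, and Cd14 1.42, 0.451 and 0.469 RPKM, so neither shared the further step down from 48 h to grown-out cells. With a pseudocount of 0.5 RPKM 3 of the 5 stayed among the nearest, and with a minimum of 2 RPKM 1 of the 5 did, since several have means below it. None of the 5 is on the lists of AHR pathway genes used here, but only measured genes could be among them. Of the 11 further AHR target genes listed, 1 was measured, so nothing is read from this absence. Spp1 is also on the duct and epithelial marker list, whose summed reads of 67394, 44506 and 40227 it leads, and Cd14 is on the immune list. The part of other cell types in these values was not tested.

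**Figure D5:**
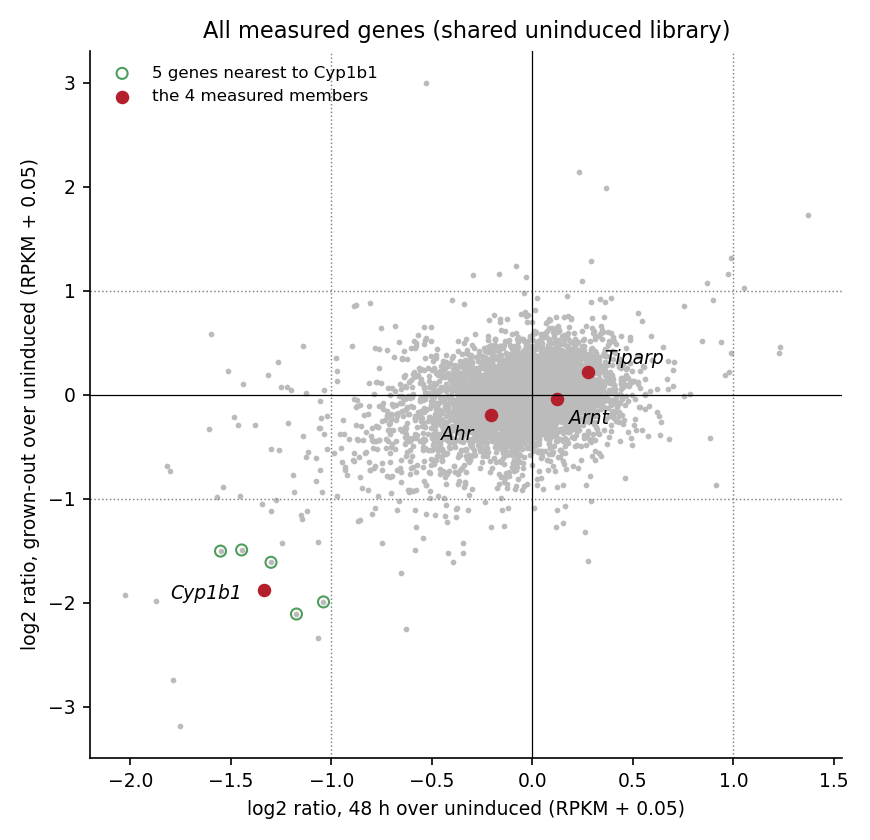
Each point is 1 of 7915 measured genes, with the log2 ratio at 48 h (horizontal axis) and in grown-out cells (vertical axis) to the same uninduced library, so the axes are not independent; dotted lines mark 2-fold. Cyp1b1 sits in the lower left at -1.33 and -1.88 with the 5 nearest genes circled, while Ahr, Arnt and Tiparp sit near the centre.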

How the data were processed

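Bru-seq libraries of 3 conditions were analysed, 1 each. Tools in the submitters' processing notes were bedtools 2.16.2, TopHat 1.4.1, Bowtie 0.12.8 and CASAVA 1.8.2, with no settings; the build named there was the human hg19, although the models are mouse genes. Per the file headers, the deposited estimated counts are reads per whole gene model, partly fractional, and were rounded for intervals. RPKM, also deposited and named in the headers, scales those reads by model length and library total. Of the models, 138 were left out (a repeated symbol, or a span over 3 Mb), and a length of at least 300 bp was required. Log2 ratios and the 2-fold rule used RPKM plus 0.05, except in plots marked as without pseudocount; folds and their intervals used plain RPKM. Scaling alternatives came from edgeR 4.0.16 (TMM) and DESeq2 1.42.0 (size factors), with scipy 1.17.1 for intervals. Interval coverage was checked only on simulated Poisson counts. Those counts hold no culture variation or repeat reads, so the check covers the calculation and not the real libraries.

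Genes and lists were chosen with earlier results of these data known. Named were all 6 genes, up to 3 measured genes per list with the largest log2 ratio against uninduced cells, models overlapping one of the 6, and the 5 genes nearest to Cyp1b1, clone-named and small RNA models left out of the last. For some lists the text gives values for only part of the genes so named.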

Additional observations from a re-analysis of the deposited data

Results flagged for a closer look

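Some measured genes named by the rule lay above the uninduced library at 48 h and below it in grown-out cells, each beyond counting error. Their grown-out against 48 h log2 ratios were -0.52 for Parp4, -1.02 for Cyp4f17, -0.71 for Scamp5 (a neighbour of Cyp1a1) and -0.37 for Ssr3 (a neighbour of Tiparp). Parp8, which was below the minimum, switched in the same way at -1.86, as did listed genes not named by the rule, such as Tnks2 and Ncoa2. The share of all measured genes with such a switch was not counted. With 1 library per condition these differences were not tested. None of the 4 measured genes of the AHR set showed such a switch beyond counting error. Arnt was above uninduced at 48 h, but its grown-out ratio of 0.972 (0.943 to 1.002) included no change. Ahrr and Cyp1a1 had too few reads to judge.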

How the results depend on the processing

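The 2-fold call for Cyp1b1 at 48 h depended on the pseudocount. With 0.5 RPKM its log2 ratio was -0.97 at 48 h and -1.29 in grown-out cells, and the number of the 6 genes past 2-fold at 48 h became 0. With a minimum mean of 2 RPKM, Cyp1b1 was no longer measured and that number was 0 in both comparisons with uninduced cells, because fewer genes were tested. TMM, DESeq2 and gene model total scaling moved any comparison by at most 0.0229 on the log2 scale, and no sign changed for Cyp1b1. The Ahr log2 ratio of grown-out to 48 h cells, 0.0109, became -0.001 with TMM and -0.0114 with gene model total scaling. All 45 alternative ratios of Ahr, Arnt and Tiparp stayed within their counting intervals. The number of all measured genes past 2-fold was 59 at 48 h, 69 in grown-out cells and 81 between them. It became 24, 18 and 23 with a minimum of 2 RPKM, 135, 261 and 248 with no minimum, and 22, 25 and 24 with a pseudocount of 0.5. A 1.5-fold threshold gave 289, 317 and 462, and a length of at least 3000 bp 34, 43 and 50. Of the 5 genes nearest to Cyp1b1, 3 were kept with the larger pseudocount and 1 with the higher minimum. Depth limits Ahrr and Cyp1a1, with 3 to 9 and 42 to 53 reads. No paired analysis was possible because each group held 1 library.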

Other observations

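Values of 4 related genes below the expression minimum follow; they were picked after their values were seen. Arnt2, the paralogue of Arnt, had 0.234, 0.192 and 0.114 RPKM in uninduced, 48 h and grown-out cells, and was 2.04-fold lower in the last (1.88 to 2.22), a log2 ratio of -0.79 with the pseudocount, which is not past 2-fold. Arntl2, a circadian PAS gene, had 0.220, 0.226 and 0.601 RPKM, so only the grown-out library was high, by 2.73-fold (2.38 to 3.13). Parp8, a relative of Tiparp, had 0.218, 0.269 and 0.0376 RPKM and was 5.81-fold lower in grown-out cells (5.10 to 6.62). Ephx1, the microsomal epoxide hydrolase gene, had 0.368, 0.211 and 0.304 RPKM, lowest at 48 h, and was 1.21-fold lower in grown-out cells (1.06 to 1.39).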
